A study of Mus musculus with 12 samples.

Results

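The activity-dependent immediate early genes *Fos*, *Fosb*, *Junb*, *Egr1*, *Egr2*, *Egr4*, *Arc*, *Npas4*, *Nr4a1* and *Dusp1* were examined in the hippocampus of naturally aged mice. These 10 genes were chosen by name, as rows of an expression table of 27833 genes, and all 10 were found in it. The mice were wild-type C57BL/6J males aged 20 months, and what the groups differed in was the solution given by oral gavage for 14 days. The control group (CON) received normal saline, the PQQ-L group received pyrroloquinoline quinone (PQQ, a redox cofactor taken as a dietary supplement) at 5 mg/kg/day, and the PQQ-H group received it at 10 mg/kg/day. There were 3 CON, 5 PQQ-L and 4 PQQ-H libraries, while 6 mice had been assigned to each group, and the labels give C, L and H for these groups. The paper states that, before the tissue was taken, behavioral tests were followed by a fast of set length and perfusion with saline and fixative. Its behavioral figure gives n = 5, and whether every sequenced mouse was tested is not stated. Beyond that fast, the time from the last handling of each mouse to the removal of its brain is not given in the sources used here.

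Immediate early genes are transcribed within minutes of a strong synaptic input, from factors already present in the neuron, and their transcripts are short-lived. Calcium entry and the MAP kinase cascade phosphorylate CREB and the SRF partners, which are bound at the promoters of these genes. Fos, Fosb and Junb are subunits of the AP-1 transcription factor, Egr1, Egr2 and Egr4 are zinc finger factors, Npas4 is a neuron-specific factor that responds to calcium, and Nr4a1 is an orphan nuclear receptor. Arc is a cytoplasmic protein that acts in the removal of AMPA receptors from synapses, and Dusp1 is a phosphatase that turns off MAP kinases. In the hippocampus these genes are widely used as markers of recently active neurons.

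The proximal promoters are shown because CREB binds the cAMP response element, and the core of this element is CGTCA. On the opposite strand the core reads TGACG. Promoter windows of RefSeq on GRCm38.p6 were used for 8 of the 10 genes, and none was used for *Arc* and *Egr1*. The selection of windows for members left out a whole chromosome that the shares over all genes kept. A gene without a window here may thus have had one that was not searched. The shares of members are those of a selected set. The counts below therefore do not cover *Arc* and *Egr1*. Each sequence below holds the 250 bases upstream of a transcription start, 5′ to 3′ on the strand of the gene, with each CGTCA or TGACG in capitals. The windows are chr12:85473640-85473889 (+) for *Fos*, chr8:84978749-84978998 (-) for *Junb*, chr6:85513590-85513839 (-) for *Egr4*, chr19:4989972-4990221 (-) for *Npas4*, chr15:101266596-101266845 (+) for *Nr4a1* and chr17:26508473-26508722 (-) for *Dusp1*.
Fos: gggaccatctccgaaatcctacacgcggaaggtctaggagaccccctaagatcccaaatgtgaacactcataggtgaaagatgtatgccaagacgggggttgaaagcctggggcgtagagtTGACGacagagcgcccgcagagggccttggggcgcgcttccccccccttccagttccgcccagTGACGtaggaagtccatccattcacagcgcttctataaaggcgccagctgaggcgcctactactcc
Junb: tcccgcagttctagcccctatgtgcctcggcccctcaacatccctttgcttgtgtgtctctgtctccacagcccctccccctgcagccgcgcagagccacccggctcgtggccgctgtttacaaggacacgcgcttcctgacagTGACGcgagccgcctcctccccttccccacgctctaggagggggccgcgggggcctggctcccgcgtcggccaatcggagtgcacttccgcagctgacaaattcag
Egr4: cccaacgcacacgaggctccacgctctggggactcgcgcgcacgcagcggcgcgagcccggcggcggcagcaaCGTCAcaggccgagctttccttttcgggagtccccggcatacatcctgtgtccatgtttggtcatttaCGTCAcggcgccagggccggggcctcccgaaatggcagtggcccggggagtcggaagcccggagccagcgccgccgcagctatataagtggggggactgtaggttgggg
Npas4: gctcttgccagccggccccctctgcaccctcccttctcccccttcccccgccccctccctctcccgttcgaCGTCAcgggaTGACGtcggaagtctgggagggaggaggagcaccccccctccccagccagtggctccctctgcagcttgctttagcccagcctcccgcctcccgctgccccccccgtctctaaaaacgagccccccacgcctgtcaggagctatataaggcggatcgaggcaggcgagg
Nr4a1: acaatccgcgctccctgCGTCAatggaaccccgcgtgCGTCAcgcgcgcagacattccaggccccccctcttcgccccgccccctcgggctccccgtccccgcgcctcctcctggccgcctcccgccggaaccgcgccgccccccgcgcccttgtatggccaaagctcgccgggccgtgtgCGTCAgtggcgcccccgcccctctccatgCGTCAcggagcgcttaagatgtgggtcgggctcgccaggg
Dusp1: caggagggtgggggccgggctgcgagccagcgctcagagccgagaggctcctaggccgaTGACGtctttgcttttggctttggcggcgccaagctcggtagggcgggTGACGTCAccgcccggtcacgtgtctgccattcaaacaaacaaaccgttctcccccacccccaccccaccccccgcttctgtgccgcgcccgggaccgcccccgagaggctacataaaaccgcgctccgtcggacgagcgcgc

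The core was present in at least 1 window of all 8 genes (100%), whereas 19.8% of 27025 genes with windows of this length had it on either strand. *Nr4a1* had 4 matches, at 233, 213, 69 and 40 bases upstream of its start. *Dusp1* had 3, of which the pair at 143 and 140 bases overlapped within the full palindrome TGACGTCA. This palindrome was found in 1 of the 8 genes and in 1.77% of all genes. *Fos* had 2 matches at 129 and 66 bases, and its TATAAA at 33 bases was the only one among the 8 genes, against 14.3% of all genes. *Egr4* and *Npas4* had 2 matches each, and *Junb* had 1. *Fosb*, whose window is not shown, had 1 match at 60 bases. *Egr2* had 5 windows from alternative starts, of which 3 held 2 matches and the other 2 held none. The CArG box bound by SRF was found in 1 gene, *Egr2*, and in 1.62% of all genes. The AP-1 site TGANTCA was in 0 of the 8 genes and in 7.82% of all genes. These matches describe the letters in these windows only.

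The levels were measured as FPKM (fragments divided by gene length in kilobases and by the size of the library), which the authors computed from reads counted on genes. The whole reads behind the FPKM could be recovered, and each library had between 29654553 and 38179496 reads on genes (median 35168171). The tissue label was compared with neuronal markers. In 4 libraries, CON 1, CON 3, PQQ-H 1 and PQQ-H 2, the summed FPKM of 15 striatal neuron markers was 1222 to 2973, while it was 86.3 to 196 in the other 8. The summed FPKM of 10 markers of hippocampal CA pyramidal neurons was 60.1 to 150 in these 4 and 238 to 429 in the other 8, and that of 12 dentate granule neuron markers was 23.4 to 39.5 against 66.0 to 181. None of the 5 PQQ-L libraries was among these 4. These libraries are called striatum-rich below, and the log2FC of the members, their correlations and the gene lists are also given without them. Leaving them out keeps only CON 2 in CON and only PQQ-H 3 and PQQ-H 4 in PQQ-H, beside all PQQ-L libraries. Markers of the choroid plexus summed to 79.6 to 232 FPKM in CON, 11.2 to 18.4 in PQQ-L and 5.33 to 19.7 in PQQ-H, so that their level and the comparison with CON cannot be told apart. In bulk tissue, fewer cells of a type and less RNA per cell cannot be told apart.

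In FPKM, which is a level per length, the mean over the 12 libraries was highest for *Egr1* (53.2), followed by *Arc* (34.2), *Junb* (28.1), *Dusp1* (11.3), *Nr4a1* (10.7), *Egr4* (8.83), *Fos* (4.03), *Fosb* (2.56), *Egr2* (0.515) and *Npas4* (0.338). The libraries of neighbours in this order overlapped in 8 of 9 cases. The exception was *Fosb*, whose lowest library (1.13) was above the highest library of *Egr2* (0.705). *Dusp1* was above *Nr4a1* in 7 of 12 libraries, and *Egr4* was above *Fos* in 12 of 12. The length recovered for *Npas4* was 16748 bases, while its longest GENCODE M21 transcript has 3791. For *Egr2* the lengths were 9084 and 2965 bases, and for *Nr4a1* 5024 and 2553. For *Fos* they were 2109 and 2108, and for *Arc* 3059 and 3055. The levels of *Npas4*, *Egr2* and *Nr4a1* are therefore low per length on this scale, although 93 to 334 reads per library were counted on *Npas4*, 96 to 225 on *Egr2* and 735 to 3182 on *Nr4a1*. Scaled to the longest M21 transcript instead, the mean would be 1.58 for *Egr2* and 1.49 for *Npas4*, still below *Fosb* (2.55). It would be 21.1 for *Nr4a1*, which would then stand above *Dusp1* (9.45). The length for *Egr1* was 3072 bases, while its longest transcript has 4484. Its mean would be 36.4 on that scale, close to the 34.3 of *Arc*. Comparisons of 1 gene between libraries are not changed by its length.

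Among the AP-1 genes, *Fos* was 1.78, 3.89 and 4.02 FPKM in CON. It was 7.09, 3.24, 5.26, 7.72 and 4.47 in PQQ-L, and 4.01, 2.24, 1.16 and 3.47 in PQQ-H. The highest 3 libraries were all PQQ-L and the lowest was PQQ-H 3, but the groups overlapped. *Junb* was 13.6, 23.1 and 30.0 FPKM in CON, 40.2, 32.5, 19.5, 39.1 and 26.8 in PQQ-L, and 37.0, 21.5, 24.0 and 29.6 in PQQ-H. CON 1 was its lowest library, and the other 2 CON libraries were within the range of PQQ-L. *Fosb*, the partner with a stable splice form that accumulates under repeated stimulation, was 3.73, 1.98 and 3.42 FPKM in CON. It was 2.05, 2.20, 2.94, 2.71 and 1.99 in PQQ-L, and 3.70, 3.01, 1.86 and 1.13 in PQQ-H. Its 4 highest libraries were the striatum-rich ones of CON and PQQ-H.

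Among the zinc finger genes, *Egr1* was 45.8, 33.5 and 68.1 FPKM in CON, 96.7, 51.5, 32.1, 66.6 and 42.8 in PQQ-L, and 75.2, 50.7, 36.5 and 38.9 in PQQ-H. Both its highest and its lowest library were in PQQ-L. *Egr4* was 3.08, 7.57 and 9.40 FPKM in CON, 9.17, 15.4, 6.22, 11.1 and 8.33 in PQQ-L, and 11.8, 7.39, 7.98 and 8.45 in PQQ-H. Apart from CON 1, the libraries of CON and PQQ-H lay within the range of PQQ-L. *Egr2* was 0.697, 0.419 and 0.582 FPKM in CON, 0.401, 0.447, 0.446, 0.620 and 0.426 in PQQ-L, and 0.705, 0.483, 0.30 and 0.654 in PQQ-H. Here CON 1 was among the highest libraries, and PQQ-H held both the highest and the lowest value.

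*Nr4a1* was 4.12, 7.81 and 12.6 FPKM in CON, 14.0, 12.5, 8.81, 18.0 and 9.69 in PQQ-L, and 13.3, 7.76, 7.97 and 11.8 in PQQ-H. *Npas4* was 0.156, 0.310 and 0.310 FPKM in CON, 0.554, 0.242, 0.264, 0.470 and 0.303 in PQQ-L, and 0.530, 0.203, 0.229 and 0.489 in PQQ-H. For both genes CON 1 was the lowest library and a PQQ-L library the highest. The effector *Arc* was 13.4, 26.8 and 33.0 FPKM in CON, 47.1, 44.5, 21.4, 62.4 and 32.6 in PQQ-L, and 46.3, 19.7, 24.1 and 39.6 in PQQ-H. Its level in PQQ-L spanned the values of all CON libraries but CON 1. The phosphatase gene *Dusp1* was 17.6, 11.1 and 13.6 FPKM in CON, 10.8, 6.95, 11.6, 14.3 and 10.4 in PQQ-L, and 14.6, 8.90, 4.40 and 10.8 in PQQ-H. In contrast to *Arc*, CON 1 was its highest library.

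**Figure D1:**
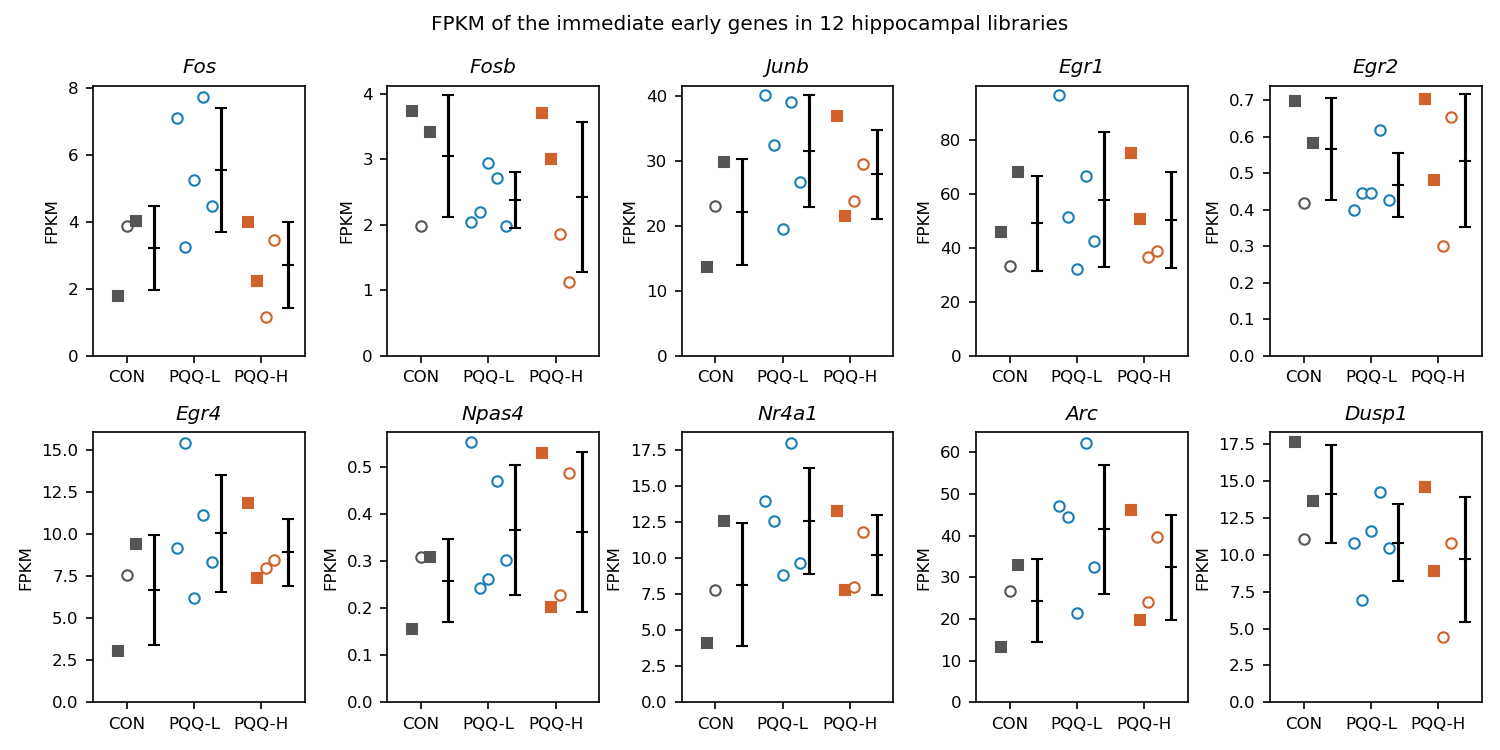
FPKM (linear axis from 0) of each of the 10 genes in the 3 CON, 5 PQQ-L and 4 PQQ-H libraries. Each point is 1 library, filled squares are the 4 striatum-rich libraries, and the black marks are the mean and SD of the group. The points of the groups overlap for every gene, and the 4 highest points of *Fosb* are the filled squares.

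The spread between libraries of 1 group was wide compared with other genes. The pooled within-group SD of log2(FPKM + 0.1) was 0.33 for *Egr2*, 0.44 for *Junb*, 0.46 for *Npas4*, 0.50 for *Fosb*, 0.51 for *Dusp1*, 0.52 for *Nr4a1*, 0.54 for *Egr4* and *Egr1*, 0.61 for *Arc* and 0.63 for *Fos*. The median over all 13796 genes tested was 0.21. *Fos* lay at the 92.1st percentile of these genes and *Egr2*, the least variable of the 10, at the 73.0th. Counting alone gives an SD of 0.020 (*Egr1*) to 0.117 (*Egr2*) on the log2 scale, which is smaller than the spread between libraries for all 10 genes. The highest library was 6.67 times the lowest for *Fos*, 5.00 times for *Egr4*, 4.65 times for *Arc* and 2.35 times for *Egr2*.

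To ask whether low-dose PQQ changed these genes, PQQ-L was compared with CON. *Fos* averaged 5.56 ± 1.85 FPKM with low-dose PQQ (SD, n = 5) and 3.23 ± 1.26 with saline (SD, n = 3). For *Arc* the means were 41.6 ± 15.5 and 24.4 ± 10.0, and for *Nr4a1* 12.6 ± 3.67 and 8.17 ± 4.25. None of the 10 genes passed the test in limma. Of all 13796 genes tested, 0.471% were called at a |log2FC| above 1 and an adjusted p below 0.05 (0.587% by the adjusted p alone), and 0 of the 9 tested members were among them by either rule. *Npas4* did not reach the mean FPKM of 0.5 that was required. At an unadjusted p below 0.05 the count was 0 of 9, against 20.5% of all genes. The groups overlapped for 10 of 10 members, while 10.6% of all genes had groups that did not overlap.

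The fitted log2FC of PQQ-L against CON was 0.79 for *Fos* (SE 0.41, adjusted p = 0.264), 0.77 for *Arc* (SE 0.40, adjusted p = 0.258), 0.71 for *Nr4a1* (SE 0.34, adjusted p = 0.249), 0.66 for *Egr4*, 0.53 for *Junb* and 0.19 for *Egr1*. It was -0.22 for *Egr2*, -0.31 for *Fosb* and -0.39 for *Dusp1*. Thus 6 values were above 0 and 3 below, with a median of 0.53, beside -0.03 over all genes tested. The adjusted p of the 9 genes lay between 0.249 and 0.725. The 95% interval for *Fos* ran from -0.12 to 1.69, which is a fold of 0.920 to 3.23. For *Npas4*, a fit with all genes above 0 gave 0.36 (SE 0.33, adjusted p = 0.582). Without the 4 striatum-rich libraries, which leaves CON with 1 library assumed to vary like the other groups, the log2FC was 0.44 for *Fos*, 0.54 for *Arc* and 0.64 for *Nr4a1*, and that of *Fosb* was 0.23. CON 1, the lowest library for *Junb*, *Egr4*, *Arc*, *Nr4a1* and *Npas4*, weighed on these values. Without it the log2FC was 0.41 for *Fos*, 0.39 for *Arc*, 0.30 for *Nr4a1*, 0.22 for *Junb* and 0.18 for *Egr4*.

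For high-dose PQQ, PQQ-H was compared with the same CON libraries. *Fos* averaged 2.72 ± 1.28 FPKM (SD, n = 4) in PQQ-H, *Arc* 32.4 ± 12.6, *Nr4a1* 10.2 ± 2.76 and *Dusp1* 9.67 ± 4.24, the last beside 14.1 ± 3.29 in CON. Again 0 of 9 members were called by limma, beside 0.819% of all genes, and 0 of 9 had an adjusted p below 0.05, beside 1.09%. The count at an unadjusted p below 0.05 was 0 of 9, beside 9.73% of all genes (1.85% higher and 7.88% lower), and 0 of 10 members had groups that did not overlap, beside 7.08%. The log2FC of PQQ-H against CON was 0.53 for *Egr4*, 0.42 for *Arc*, 0.42 for *Nr4a1*, 0.37 for *Junb* and 0.03 for *Egr1*. For *Egr2* it was -0.10, for *Fos* -0.29, for *Fosb* -0.40 and for *Dusp1* -0.64 (SE 0.35, adjusted p = 0.615). The 5 values above 0 and 4 below had a median of 0.03, beside -0.03 over all genes, and adjusted p of 0.615 to 0.981. For *Npas4* the value was 0.32 (adjusted p = 0.823). Without CON 1, the log2FC was 0.055 for *Egr4*, 0.039 for *Arc*, 0.0017 for *Nr4a1* and 0.060 for *Junb*, and it was -0.66 for *Fos*. Without the 4 striatum-rich libraries, it was 0.12 for *Egr4*, 0.20 for *Arc*, 0.31 for *Nr4a1*, 0.21 for *Junb*, 0.17 for *Egr1* and 0.08 for *Egr2*, while it was -0.91 for *Fos*, -0.42 for *Fosb* and -0.67 for *Dusp1*. In both of these fits 0 of 9 members had an unadjusted p below 0.05, beside 7.76% and 10.5% of all genes.

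The 2 doses were then compared with each other. *Fos* had a log2FC of -1.08 in PQQ-H against PQQ-L (SE 0.38, 95% interval -1.91 to -0.24), with an unadjusted p of 0.016 and an adjusted p of 0.580 in limma. It was the 1 member of 9 with an unadjusted p below 0.05, and 8.15% of all genes reached this, with 3.55% higher and 4.6% lower in PQQ-H. At an adjusted p below 0.05, 0 members and 0.0% of all genes were found. Without PQQ-H 3, the log2FC of *Fos* was -0.73 and the count at an unadjusted p below 0.05 was 0 of 9, beside 13.7% of all genes in that fit. Without the 4 striatum-rich libraries the log2FC was -1.35 for *Fos* and -0.66 for *Fosb*. This fit kept only PQQ-H 3 and PQQ-H 4 of the PQQ-H group. PQQ-H 3 held the lowest *Fos* of all 12 libraries and PQQ-H 4 the lowest *Fosb*. With all 12 libraries, the other members lay between -0.35 (*Arc*) and 0.12 (*Egr2*), and 1 was above 0 and 8 below, with a median of -0.16 beside -0.02 over all genes. *Npas4* had -0.04 (adjusted p = 0.993). The groups overlapped for 10 of 10 members, while they did not for 4.76% of all genes. The low-dose and high-dose comparisons share the CON libraries, and the comparison between doses shares PQQ-L and PQQ-H with both.

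**Figure D2:**
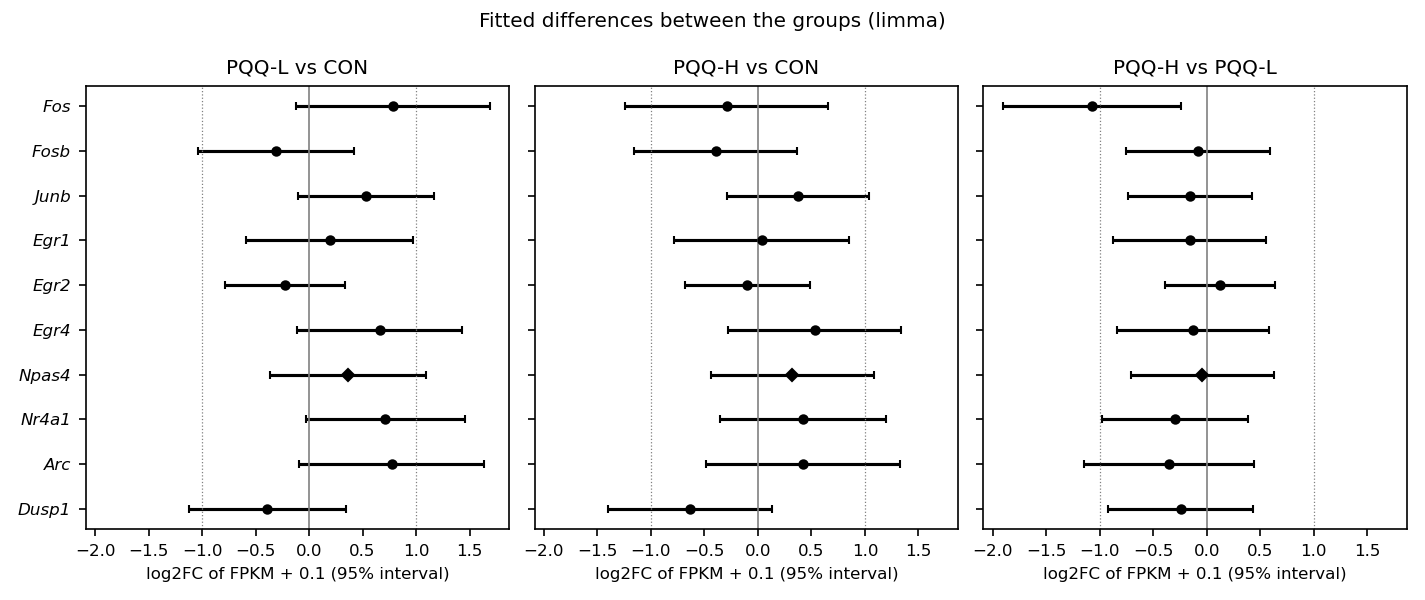
Log2FC of each gene in the 3 comparisons (points) with the 95% interval from limma (bars), on a linear axis of log2 units. Diamonds are *Npas4* from the fit with all genes above 0, and dotted lines mark a |log2FC| of 1. Every interval reaches 0 except that of *Fos* in PQQ-H vs PQQ-L.

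A test over the 3 groups together gave the same count. With the F test of limma, 0 of 9 members had an adjusted p below 0.05, beside 0.623% of all genes. *Fos* had the lowest unadjusted p (0.039, adjusted p = 0.378) and was the 1 of 9 below 0.05, where 13.0% of all genes were. With voom on the recovered reads, which tested all 10 members, the count at an adjusted p below 0.05 was also 0 in each comparison. At an unadjusted p below 0.05, voom gave 1 (*Nr4a1*) for PQQ-L against CON, 0 for PQQ-H against CON and 1 (*Fos*) for the 2 doses, beside 21.2%, 10.5% and 7.98% of the 16798 genes that voom tested.

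The 10 genes did not all vary together from library to library. *Arc*, *Junb* and *Nr4a1* were closest, with a Pearson's r across the 12 libraries of 0.969 between *Junb* and *Arc*, 0.955 between *Junb* and *Nr4a1* and 0.954 between *Arc* and *Nr4a1*. All 3 were high in PQQ-L 1, PQQ-L 4 and PQQ-H 1 and lowest in CON 1. *Egr4* followed them, and the 6 pairs among these 4 genes had an r of 0.854 to 0.969. When each library was centred on its group mean, the range was 0.821 to 0.965. Over the 8 libraries that are not striatum-rich it was 0.643 to 0.958. *Egr1* had an r of 0.67 with *Junb*, 0.57 with *Arc* and 0.57 with *Nr4a1* over the 12 libraries. Over those 8 libraries *Egr1* had 0.92, 0.81 and 0.81 with them, and *Egr4* had 0.70, 0.75 and 0.64. Among 13796 genes ranked by their r with *Arc*, *Junb* was 1st, *Nr4a1* 3rd, *Egr4* 8th and *Npas4*, which was added to the tested genes for this ranking, 11th. *Npas4* had an r of 0.80 to 0.84 with *Arc*, *Junb* and *Nr4a1*. These pairs were picked for their r and share libraries, so no p is given. The 4 genes ran against 10 markers of thalamic neurons, with an r of -0.69 for *Junb*, -0.77 for *Egr4*, -0.65 for *Arc* and -0.74 for *Nr4a1*. These markers summed to 163, 156 and 35.8 FPKM in CON 1 to CON 3, to 29.7 to 115 in PQQ-L and to 22.2 to 47.0 in PQQ-H. With the CA pyramidal neuron markers the 4 genes had an r of 0.47 (*Junb*) to 0.53 (*Egr4*). With the dentate granule neuron markers they had 0.41 to 0.51, and with the choroid plexus markers -0.42 to -0.33. The part of these cells in the levels of the 4 genes was not tested.

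When all 12 libraries were used, *Dusp1* and *Egr2* formed a separate pair. Their r was 0.806 over 12 libraries, 0.881 after centring and 0.706 over the 8 libraries that are not striatum-rich. Both were high in CON 1 and PQQ-H 1 and lowest in PQQ-H 3. With *Arc* the r over 12 libraries was 0.02 for *Dusp1* and 0.12 for *Egr2*. Over the 8 libraries that are not striatum-rich it was 0.37 and 0.59. *Dusp1* had an r of 0.91 and a rho of 0.74 with *Fos* in these 8, so by r the pair did not stand apart there. PQQ-H 3 was the lowest library for *Fos* as well. Over 12 libraries, *Fosb* had an r of -0.29 to -0.19 with *Arc*, *Junb*, *Nr4a1*, *Egr4* and *Npas4*. Over all 45 pairs of members the r ran from -0.32 to 0.969.

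**Figure D3:**
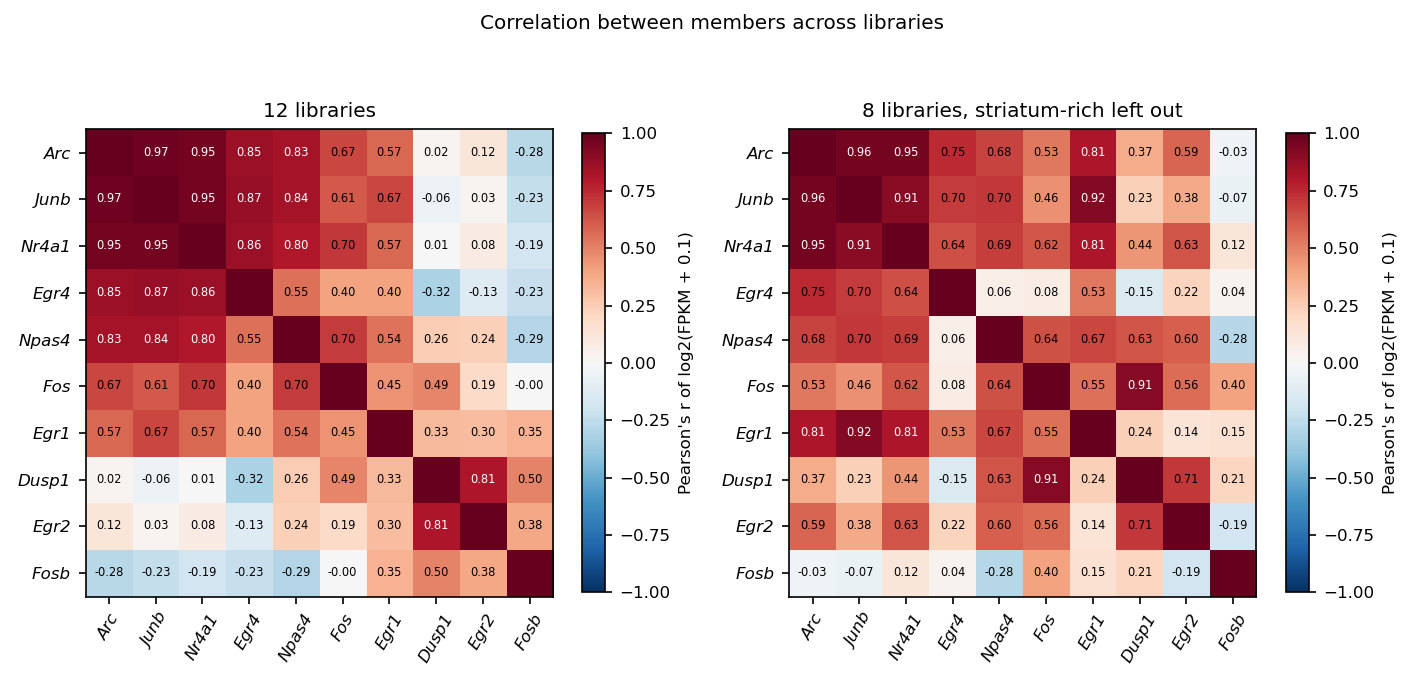
Pearson's r of log2(FPKM + 0.1) between members, as colour and number from -1 to 1, over all 12 libraries and over the 8 that are not striatum-rich. Over 12 libraries *Arc*, *Junb* and *Nr4a1* form the block with the highest r, *Dusp1* and *Egr2* form a pair, and *Fosb* is near or below 0 with the block. Over the 8 libraries, *Egr1* with *Junb* (0.92) and *Dusp1* with *Fos* (0.91) are as high as pairs of the block.

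**Figure D4:**
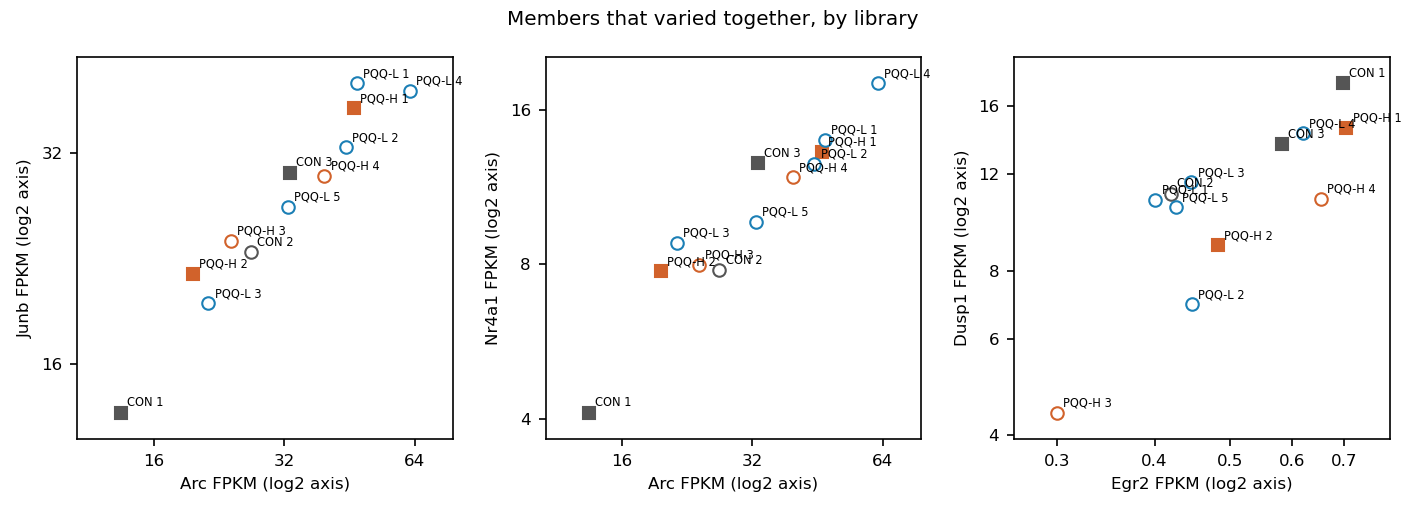
FPKM of *Junb* and *Nr4a1* against *Arc*, and of *Dusp1* against *Egr2*, on log2 axes. Each point is 1 library coloured by group (grey CON, blue PQQ-L, orange PQQ-H), with filled squares for the striatum-rich libraries. CON 1 is the lowest point for *Arc*, *Junb* and *Nr4a1* and the highest for *Dusp1*.

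Because *Fos* is the usual marker of neuronal activity, each of the other 9 members was tested for its relation with *Fos*. *Nr4a1* had a Pearson's r of 0.703 (permutation p = 0.0111, adjusted p over the 9 relations = 0.04999) and a Spearman's rho of 0.706 (permutation p = 0.0127, adjusted p = 0.0828). *Npas4* had an r of 0.703 (permutation p = 0.00997, adjusted p = 0.04999) and a rho of 0.678 (permutation p = 0.0184, adjusted p = 0.0828). Their adjusted p for r lay just below the threshold of 0.05, and 7 of the 9 relations lay above it. These p-values come from random resamples, and a margin this small is within the error of resampling. *Arc* had an r of 0.669 (permutation p = 0.0170, adjusted p = 0.0511) and a rho of 0.601 (permutation p = 0.0426, adjusted p = 0.128). *Junb* had an r of 0.611 (permutation p = 0.0349, adjusted p = 0.0786) and a rho of 0.531 (permutation p = 0.0789, adjusted p = 0.178). For *Fosb* the r was -0.002 (permutation p = 0.996) and the rho 0.03 (permutation p = 0.921).

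Leaving out 1 library at a time gave an r of 0.623 to 0.772 for *Nr4a1* and 0.633 to 0.763 for *Npas4*. Without CON 1 and PQQ-H 3, the 2 libraries farthest from the median of *Fos*, the r was 0.607 for *Nr4a1* and 0.601 for *Npas4*, with an adjusted permutation p of 0.254. The relations thus stayed positive, but 0 of the 9 passed the threshold without these 2 libraries. After centring on the group means 5 passed, and the r of *Npas4* was 0.873 (permutation p = 0.00042, adjusted p = 0.00378). This permutation moved the centred values freely across groups and did not allow for the group means removed. Its p-values are therefore too small, and the 5 are not taken as more relations than before centring. Among the 8 libraries that are not striatum-rich, 1 relation passed by r. It was that of *Dusp1*, with an r of 0.912 (exact permutation p = 0.00206, adjusted p = 0.0185). Its rho of 0.738 did not pass (exact permutation p = 0.0458, adjusted p = 0.345). PQQ-H 3 was the lowest library for both *Dusp1* and *Fos*. Over the 12 libraries, leaving out 1 at a time gave *Dusp1* an r with *Fos* of 0.018 to 0.80. The 4 striatum-rich libraries are too few for a value of their own. The letter that opens each library name, whose meaning is not given in the sources used here, was also used as a possible batch. Among the 7 libraries that open with L, the r was 0.747 for *Nr4a1* and 0.730 for *Npas4*, with an adjusted exact permutation p of 0.116, and 0 relations passed. The other letter holds 5 libraries, too few for a value.

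*Fosb* was compared with the markers of tissue composition. All 4 striatum-rich libraries (3.01 to 3.73 FPKM) were above all 8 others (1.13 to 2.94), with a mean difference of 0.73 on the log2 scale. Of all genes tested, 10.7% were higher without overlap in these 4 libraries and 14.3% were lower, and of the 10 members *Fosb* was the 1 without overlap. The striatum-rich minus other difference on the log2 scale was 0.47 for *Dusp1*, 0.36 for *Egr2* and 0.34 for *Egr1*, and -0.49 for *Fos*, -0.48 for *Arc* and -0.26 for *Junb*. *Fosb* had an r of 0.75 with the striatal neuron markers, -0.82 with the dentate granule neuron markers, 0.80 with the endothelium markers and 0.77 with the oligodendrocyte markers. The 8 oligodendrocyte markers summed to 1758 to 2772 FPKM in the striatum-rich libraries and 957 to 1682 in the others, and the 10 endothelium markers to 158 to 199 and 114 to 149. None of the genes in these marker lists was at 0 in every library. The part of tissue composition in the level of *Fosb* was not tested beyond these values.

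**Figure D5:**
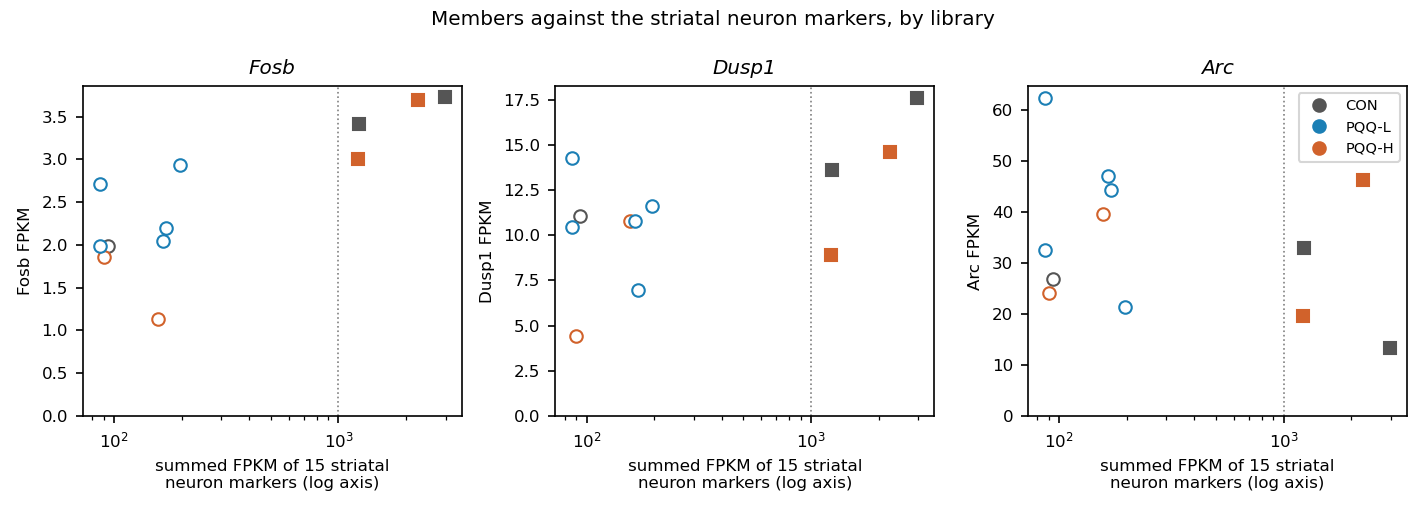
FPKM of *Fosb*, *Dusp1* and *Arc* (linear axes from 0) against the summed FPKM of the 15 striatal neuron markers (log axis), with 1 point per library coloured by group. The dotted line marks a sum of 1000, and all 4 libraries to its right lie above the other 8 for *Fosb* (3.01 to 3.73 against 1.13 to 2.94) but overlap them for *Dusp1* and *Arc*.

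Other genes of the activity response were read from 4 lists. Some genes, such as *Fosl2*, are in both the rapid response list and the list of AP-1 partners. The counts of these lists are therefore not independent. Among 44 other rapid response genes, of which 43 were tested, 0 had an adjusted p below 0.05 in any comparison. In PQQ-L against CON, 25 had a log2FC above 0 and 18 below, with a median of 0.06 beside -0.03 over all genes. At an unadjusted p below 0.05, 10 were higher and 1 lower, and of all genes 8.92% were higher and 11.6% lower. In PQQ-H against CON the split was 16 above 0 and 27 below, with a median of -0.13 and 1 higher and 5 lower at an unadjusted p below 0.05, beside 1.85% and 7.88% of all genes. For PQQ-H against PQQ-L it was 8 above 0 and 35 below, with a median of -0.24 beside -0.02 over all genes, and 0 higher and 4 lower at an unadjusted p below 0.05, beside 3.55% and 4.6%. Without the striatum-rich libraries the last split was 13 and 30, with a median of -0.23, and 0 were higher and 14 lower at an unadjusted p below 0.05, beside 3.91% and 8.75% of all genes in that fit. The same fit gave 6 higher and 0 lower in PQQ-L against CON, beside 1.51% and 3.06%, and 1 higher and 4 lower in PQQ-H against CON, beside 2.31% and 8.15%. The genes of this list with the smallest p in the F test were *Gadd45g*, *Apold1* and *Per2*, and all missed the threshold. *Gadd45g*, a stress and DNA demethylation factor, was 12.3 to 15.3 FPKM in CON, 8.86 to 11.8 in PQQ-L and 9.51 to 10.7 in PQQ-H (adjusted p = 0.118). *Apold1*, an early gene of vascular cells, was 0.969 to 1.17, 1.24 to 2.04 and 0.828 to 1.51 FPKM in the same order (adjusted p = 0.263). *Per2*, a repressor of the circadian clock, was 3.16 to 5.12, 5.32 to 6.19 and 3.92 to 5.31 FPKM (adjusted p = 0.327).

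The delayed and secreted products of the response gave 0 of 17 tested genes at an adjusted p below 0.05 in limma. Their median log2FC was 0.12 in PQQ-L against CON, -0.04 in PQQ-H against CON and -0.20 between the doses, and at an unadjusted p below 0.05 there were 2, 0 and 2 genes, beside 20.5%, 9.73% and 8.15% of all genes. Without the striatum-rich libraries the medians were 0.06, -0.0019 and -0.10, and there were 0, 2 and 6 such genes, beside 4.57%, 10.5% and 12.7% of all genes in that fit. *Gpr3*, a receptor with constitutive activity toward cAMP, was 1.71 to 2.17 FPKM in CON, 1.91 to 3.29 in PQQ-L and 1.45 to 1.78 in PQQ-H (adjusted p of the F test 0.245). *Pcsk1*, a protease that processes prohormones, was 1.86 to 7.17, 3.06 to 6.69 and 1.63 to 3.23 FPKM (adjusted p = 0.372). *Pdyn*, the precursor of the dynorphins and abundant in striatal neurons, was 3.52 to 53.8, 3.76 to 7.83 and 4.92 to 42.9 FPKM (adjusted p = 0.384).

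Of the kinases and factors upstream of these genes, 0 of 31 tested passed an adjusted p of 0.05 in limma. Their median log2FC was 0.19 in PQQ-L against CON, 0.07 in PQQ-H against CON and -0.02 between the doses. At an unadjusted p below 0.05 there were 8, 4 and 1 genes, beside 20.5%, 9.73% and 8.15% of all genes. Without the striatum-rich libraries the medians were 0.06, 0.02 and -0.03, and there were 0, 2 and 6 such genes, beside 4.57%, 10.5% and 12.7%. *Creb1*, which encodes CREB, was 3.66 to 5.34 FPKM in CON, 5.31 to 6.85 in PQQ-L and 4.18 to 5.27 in PQQ-H (adjusted p = 0.377). The coactivator gene *Crebbp* was 4.17 to 5.13, 5.46 to 5.99 and 4.76 to 5.67 FPKM (adjusted p = 0.377). *Crtc1*, a coactivator of CREB that moves to the nucleus with calcium, was 13.1 to 18.0, 15.9 to 23.5 and 19.6 to 22.7 FPKM (adjusted p = 0.377).

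Among the AP-1 partners and EGR co-repressors, 0 of 9 tested passed, with a median log2FC of 0.13, 0.15 and -0.16 in the 3 comparisons and 1, 0 and 2 genes at an unadjusted p below 0.05 in limma, beside 20.5%, 9.73% and 8.15% of all genes. Without the striatum-rich libraries the medians were 0.14, -0.09 and -0.0097, and there were 0, 1 and 3 such genes, beside 4.57%, 10.5% and 12.7%. *Nab1*, a co-repressor of the Egr factors, was 5.33 to 6.63 FPKM in CON, 6.19 to 7.01 in PQQ-L and 5.06 to 5.68 in PQQ-H (adjusted p = 0.319). *Fosl2*, a Fos-related subunit of AP-1, was 0.966 to 5.62, 5.28 to 8.73 and 2.13 to 5.95 FPKM (adjusted p = 0.380). *Batf3* was 0.663 to 1.34, 0.552 to 1.24 and 0.910 to 1.48 FPKM (adjusted p = 0.397).

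The genes outside the 10 whose pattern over the 12 libraries was most like the mean z-score of the members were ranked among the 12245 genes averaging 1 FPKM or more. *Dcp1a*, a factor of mRNA decapping, had a Pearson's r of 0.874, *Cep83* 0.851, *Maml1*, a coactivator of Notch, 0.839 and *Cry2*, a repressor of the circadian clock, 0.823. They were followed by *Resf1* (0.818), *Edem1* (0.814), *Pou3f3* (0.80), *Pde12* (0.794), *Ubtd2* (0.784) and *Plekhh2* (0.779). These genes were picked for their r among 12245 genes over only 12 libraries, so no p is given. Selection alone can give a high r here. The mean z-score itself was highest in PQQ-L 4 (1.01) and PQQ-H 1 (0.96) and lowest in PQQ-H 3 (-1.04) and CON 1 (-0.81).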

How the data were processed

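Hippocampal RNA was extracted with TRIzol and sequenced by the authors on an Illumina NovaSeq instrument. Per the paper's methods, the authors filtered reads with fastp, mapped them with HISAT2, counted them with HTSeq-count and tested genes with DESeq2. The authors deposited FPKM for 27833 genes in 12 libraries, and the submitters' processing notes name mm39. Tool versions and strandedness are not given in the sources used here. Nothing was rescaled further.

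Whole reads were recovered from FPKM ratios for 25563 of 25563 genes with values in at least 2 libraries (tolerance 0.02 reads). On simulated data, 98.5% of 2475 genes were recovered. Because the files hold FPKM, DESeq2 was not repeated. The moderated test of limma (version 3.58.1, R 4.3.3) was applied to log2(FPKM + 0.1), a scale that understates changes of low genes, with a trend and 1 fit of 12 libraries, for the 13796 genes averaging 0.5 FPKM or more, and p-values were adjusted by Benjamini-Hochberg over all of them. Calls needed a |log2FC| above 1 and an adjusted p below 0.05. The fit was tested on simulated data. Correlations used two-sided permutation tests with 100000 resamples, exact for up to 8 libraries, in Python 3.11.15 with scipy 1.17.1. Counts of reads cover counting error only. P-values measure the spread between these libraries, since the labels do not say that each is a separate mouse.

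The members, lists and markers were chosen with earlier results of these data known. The genes named are the 10 members, the 3 genes with the smallest p of the F test in each list (and any gene of a list past the threshold) and the 10 genes most like the mean z-score of the members. The alternatives were other pseudocounts, filters, scalings, tests, weights and covariates, a replicate block, and each library left out in turn. Leaving out the 4 striatum-rich libraries was chosen after seeing the data. Cell type markers were compared as summed FPKM. Promoter windows came from RefSeq on GRCm38.p6, and both strands were searched. The CArG box was searched by its usual consensus.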

Additional observations from a re-analysis of the deposited data

Results flagged for a closer look

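*Egr2* in PQQ-L 4 stood apart from the other 4 libraries of its group. Its level was 0.620 FPKM, against 0.401 to 0.447 in the others, and the gap to the nearest was 0.790 of the whole range of the group, above Dixon's critical value. The same library was the highest for *Fos*, *Arc* and *Nr4a1*. Of 20 groups of 4 or 5 libraries examined (10 genes in PQQ-L and PQQ-H), 1 was marked in this way, and chance marks about 1 in 20. No cause was tested.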

How the results depend on the processing

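No alternative brought a member to an adjusted p below 0.05 in any of the 3 comparisons or in the F test, and the lowest adjusted p of a log2FC under an alternative was 0.144. Of 729 log2FC of members under alternatives, 702 kept their direction and 27 reversed. Part of the 702 could not change. The log2FC stays the same by design with another filter, without the trend, with a robust test or with only the 2 groups compared. It also stays the same when a library outside the comparison is left out. The 702 therefore overstate how far the directions were put to a test. With the choroid plexus score as a covariate, *Fosb* was 0.54 for low dose vs CON, 0.71 for high dose vs CON and 0.17 between doses, *Fos* 0.81 and *Egr2* 0.0099 (PQQ-H vs CON), and *Egr1* 0.032 and *Nr4a1* 0.029 (PQQ-H vs PQQ-L). Values that kept their direction also moved with this covariate, as *Nr4a1* was 1.82 for low dose vs CON and 1.85 for high dose vs CON (SE 1.12 and 1.42), and *Fos* 1.64 for low dose vs CON (SE 1.40). With the striatal score, *Fosb* was 0.21 and *Egr2* 0.020 (PQQ-L vs CON), and *Egr2* -0.039 (PQQ-H vs PQQ-L). With array quality weights, *Fos* was 0.0043 (PQQ-H vs CON). Without the 4 striatum-rich libraries, *Fosb* was 0.23 and *Egr2* 0.12 (PQQ-L vs CON), *Egr2* 0.080 (high dose vs CON) and -0.036 (between doses). Leaving out 1 library at a time gave ranges across 0 for *Egr1* in PQQ-L vs CON (-0.052 to 0.46), for *Fos* (-0.66 to 0.051), *Egr1* (-0.21 to 0.30) and *Egr2* (-0.27 to 0.11) in PQQ-H vs CON, and for *Fosb* (-0.32 to 0.22), *Egr1* (-0.37 to 0.051), *Egr2* (-0.0078 to 0.33), *Egr4* (-0.28 to 0.040) and *Dusp1* (-0.48 to 0.088) in PQQ-H vs PQQ-L. The cause was not tested.

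The count of relations with *Fos* at an adjusted permutation p of r below 0.05 was 2, both within the resampling error of the threshold. After centring it was 5, by a permutation that did not allow for the group means removed and gave p-values that are too small. It was 0 without the 2 farthest libraries, 0 among the libraries that open with L and 0 with median-of-ratios scaling. It was 1 without the 4 striatum-rich libraries, and 0 to 4 with 1 library left out. The r of *Fosb* with *Fos* was -0.002 and became 0.012 after centring, 0.023 without the 2 farthest libraries, 0.32 among the libraries that open with L, 0.40 without the striatum-rich libraries and -0.21 to 0.18 with 1 library left out. That of *Egr2* was 0.19 and became -0.045 without the 2 farthest libraries and -0.30 to 0.43 with 1 left out.

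Whether the replicate numbers pair the mice could not be decided from the values. The deviations of libraries with the same number had an r of -0.62 to 0.72. Those of libraries with different numbers ranged as widely, from -0.77 (CON 2 and PQQ-H 1) to 0.79 (CON 2 and PQQ-H 3). A replicate block left the count of members at an adjusted p below 0.05 at 0 in each comparison, with a log2FC of -1.14 for *Fos* in PQQ-H vs PQQ-L. The spread between libraries limits what can be seen. The 95% interval reached past a |log2FC| of 1 for 7 of 9 members in PQQ-L vs CON, 7 in PQQ-H vs CON and 2 between doses.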
